A study of Mus musculus with 3 samples.

Results

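The urothelium, the epithelium that lines the ureter, is built under a set of transcription factor genes, and 9 of them are described here in the ureter of wild-type mouse embryos: Foxa1, the grainyhead-like genes Grhl1, Grhl2 and Grhl3, Elf3, Klf5, Trp63, Pparg and Ovol1. The genes were listed by name, and every probe set whose platform annotation gave 1 of these symbols and no other was taken, 18 probe sets for 9 of the 18194 named genes on the array. The series holds 1 group of 3 samples, called replicates 3, 8 and 9 after their labels, of microdissected ureter from FVB/N embryos at embryonic day 15 (Theiler stage 23), cut between the renal pelvis and the entry into the bladder. No sample was pooled and the sex is given as unknown. Each RNA passed 2 rounds of amplification and was then measured on an Affymetrix Mouse Genome 430 2.0 array, which reads 1 sample with 1 dye. The labels do not say whether different embryos or litters gave the 3 samples, so the spread between them may be technical. With a single group there was no condition to compare, and the results are levels, their spread and their position against background.

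Urothelium forms as layers: basal cells on the basement membrane, intermediate cells, and superficial cells that carry uroplakin plaques on the surface facing the urine. The basal layer depends on p63, the product of Trp63, whereas PPARG, FOXA1, ELF3, KLF5, GRHL3 and GATA3 are known to drive genes of the intermediate and superficial layers. Grainyhead-like factors act on genes of cell junctions and barrier formation in many epithelia, and OVOL1 is a zinc finger transcriptional repressor that promotes growth arrest and differentiation of epidermal cells. None of the 9 genes is expressed only in urothelium: Foxa1 is active in liver, Pparg in fat, macrophages and endothelium, and Trp63 and the grainyhead-like genes in skin.

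The start regions of 3 members are shown because their products bind well known motifs and because Foxa1 and Grhl1 were highest in a different sample from Grhl3. The sequences are RefSeq's for build GRCm38.p6, with 250 bases before and 50 after the annotated start, and 5 of the 9 members had an entry. Capitals mark matches, on either strand, to the forkhead motif TGTTTAC, the grainyhead motif AACCNGTT, the GC box GGGCGG bound by the Krüppel-like and SP factors or the ETS motif CCGGAAG.
Foxa1, chr12:57546062-57546361, minus strand: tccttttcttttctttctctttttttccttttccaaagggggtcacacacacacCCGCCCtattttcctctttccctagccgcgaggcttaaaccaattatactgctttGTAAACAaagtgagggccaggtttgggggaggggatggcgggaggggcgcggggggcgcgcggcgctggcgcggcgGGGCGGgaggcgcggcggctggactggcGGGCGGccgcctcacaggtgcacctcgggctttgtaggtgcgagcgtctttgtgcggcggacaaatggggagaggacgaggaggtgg
Grhl1, chr12:24572037-24572336, plus strand: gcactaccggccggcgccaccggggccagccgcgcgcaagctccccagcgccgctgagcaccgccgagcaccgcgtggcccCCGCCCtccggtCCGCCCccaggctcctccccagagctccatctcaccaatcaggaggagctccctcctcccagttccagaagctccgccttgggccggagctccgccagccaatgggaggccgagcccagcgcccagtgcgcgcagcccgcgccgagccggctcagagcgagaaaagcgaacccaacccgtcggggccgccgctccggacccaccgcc
Grhl3, chr4:135573583-135573882, minus strand: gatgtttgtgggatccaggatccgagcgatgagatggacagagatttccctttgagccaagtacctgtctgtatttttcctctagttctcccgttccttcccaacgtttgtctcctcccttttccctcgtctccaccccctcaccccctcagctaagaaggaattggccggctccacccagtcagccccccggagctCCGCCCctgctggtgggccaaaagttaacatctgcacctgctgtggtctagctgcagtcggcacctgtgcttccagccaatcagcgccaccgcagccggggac
The Foxa1 region held 1 forkhead match, the motif of its own protein family, beginning 141 bases before the start, and 3 GC boxes. The forkhead letters occurred in 3.65% of the 32851 promoters of the same length and the GC box in 35.7%. The Grhl1 region shown, the upstream of its 2 annotated starts, held 2 GC boxes, and the Grhl3 region held 1. The grainyhead letters, present in 2.09% of all promoters, and the ETS letters (8.86%) were not found in these windows. These are matches of letters and do not show that a factor binds there.

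For each gene the probe set with the largest mean of log2(signal + 1) was used. A gene was called above background when its signal on each of the 3 arrays exceeded the 95th percentile of 47 genes that belong to organs not dissected here, among them eye, testis and pituitary genes. In replicates 3, 8 and 9 that percentile lay at 438, 354 and 679. By this rule 6 of the 9 factor genes were above background (Foxa1, Grhl1, Grhl2, Grhl3, Klf5 and Trp63), against 50.5% of all named genes. No test was run on this share, because the list was short and chosen by name. Signals are in array units, and the brightness of different probe sets is not comparable, so the genes are not ranked against each other.

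**Figure D1:**
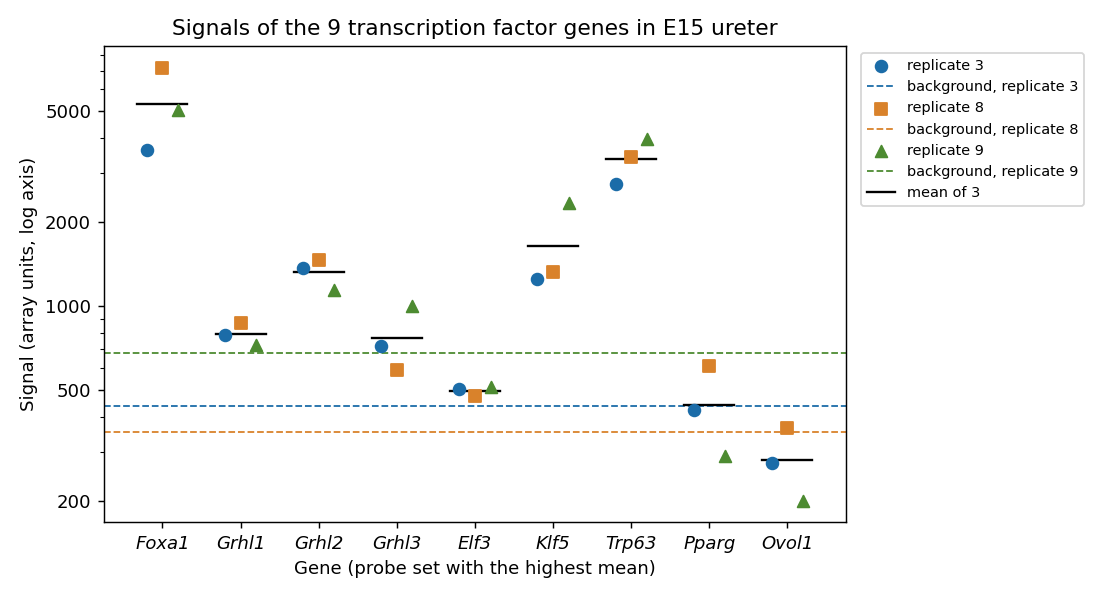
Signal of each of the 9 transcription factor genes (log axis, array units) in replicates 3, 8 and 9, with the mean as a black bar and the background of each array as a dashed line. Foxa1, Trp63, Klf5, Grhl2, Grhl1 and Grhl3 lay above the line of their own array in every replicate, whereas Elf3 did so in 2 replicates and Pparg and Ovol1 in 1.

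Foxa1, which encodes a forkhead factor that opens chromatin in endodermal and urogenital epithelia, gave 3650, 7188 and 5066 in replicates 3, 8 and 9. It averaged 5301 ± 1781 (SD, n = 3, as for every mean below), and was 8.34, 20.3 and 7.47 times the background of its array. The highest replicate was 1.97 times the lowest. This was the largest log2 range, 0.98, among the 6 members above background. Its SD of 0.49 was larger than that of 83.2% of all genes above background.

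Trp63, the gene of the basal cell factor p63, had signals of 2734, 3431 and 3993 in replicates 3, 8 and 9 (mean 3386 ± 631). All 3 were at least 5.88 times the background of their array, and the log2 range was 0.55. Klf5, which encodes a Krüppel-like factor of proliferating and differentiating epithelia, had signals of 1255 and 1323 in replicates 3 and 8 and of 2355 in replicate 9 (mean 1644 ± 616). Replicates 3 and 8 lay together for Klf5 and replicate 9 stood apart, so that its log2 SD was 0.50.

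The 3 grainyhead-like genes were all above background. Grhl2, whose product sustains E-cadherin and claudin genes, had signals of 1372, 1463 and 1146 (mean 1327 ± 163). Grhl1, a desmosomal gene regulator in skin, had signals of 784, 869 and 725 (mean 793 ± 72.4). Grhl3, needed for the superficial cells of the bladder and for the skin barrier, had signals of 720, 589 and 999.8 (mean 769.7 ± 209.8). The margin was narrow for Grhl1 in replicate 9, at 1.07 times the background, and for Grhl3, at 1.65, 1.67 and 1.47 times. Grhl1 and Grhl2 were highest in replicate 8 and lowest in replicate 9, whereas Grhl3 had the opposite order.

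The other 3 genes did not exceed background on every array. Elf3, an epithelium-specific ETS factor gene, had nearly the same signal in each sample, 504, 474 and 512 (mean 497 ± 20.1). Its log2 SD of 0.06 was larger than that of 2.27% of all named genes. It was above background in replicates 3 and 8 and not in replicate 9, where background was highest, although its own signal was highest there too. With at least 2 arrays as the rule, Elf3 is included and 7 of the 9 genes were above background, against 57.1% of all named genes. Pparg, the gene of a ligand-activated nuclear receptor, had signals of 423, 609 and 288 (mean 440 ± 161) and exceeded background in replicate 8, by 1.72 times. Ovol1 had signals of 274, 366 and 200.01 (mean 279.9 ± 83.0) and exceeded background in replicate 8 by 1.03 times. Pparg and Ovol1 were both highest in replicate 8 and lowest in replicate 9.

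Several probe sets were present for 4 members, and in none of these was a second probe set above background. Of the 18 probe sets of the 9 genes, 6 were above background on all 3 arrays, against 38.8% of all probe sets with 1 symbol. The 9 probe sets beyond the ones used were below background on every array. Each was dimmer on average than the set used, because the brightest was chosen. The share of such unused probe sets above background over all genes was not counted. For Trp63, probe set 1418158_at gave the signals above, while 1452027_a_at gave 109, 23.4 and 50.3 in replicates 3, 8 and 9, 1459581_at gave 30.1, 28.1 and 61.9, and 1451876_a_at gave 8.51, 13.8 and 22.1. Trp63 has transcripts from separate start sites and several 3′ ends, and which of them each probe set reads is not given in the sources used here.

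Grhl2 had 4 probe sets as well. Beside 1427046_at, the set used, 1431877_a_at gave 283, 197 and 290.01, 1431878_at gave 11.9, 22.0 and 135, and 1452643_at gave 5.43, 3.58 and 5.94. The dimmest of these reached at most 0.0124 of the background of its array. For Klf5, 1451021_a_at was the set used, 1451739_at gave 92.8, 84.7 and 169.5 and 1430255_at gave 16.9, 2.48 and 49.98. All 3 Klf5 probe sets were highest in replicate 9, but those other than the set used were below background throughout and give no support to that order. For Ovol1, 1419052_at gave 27.2, 263 and 179, against 274, 366 and 200.01 for 1419051_at, and both were highest in replicate 8. Labelled RNA was biased towards the 3′ end of transcripts in all samples: the 3′ probe set of the control transcript Actb was 7.45, 6.50 and 4.005 times the 5′ one in replicates 3, 8 and 9, and that of Gapdh 18.9, 15.1 and 16.4 times. The part of this bias in the dim probe sets was not tested.

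**Figure D2:**
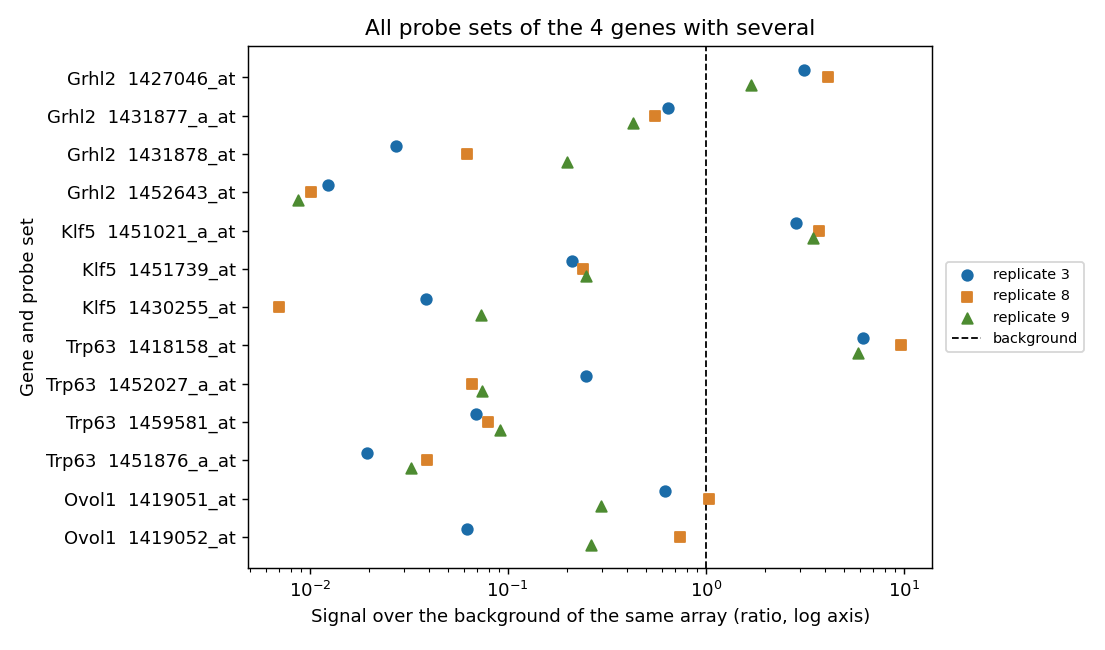
Signal over the background of the same array (ratio, log axis) for all 13 probe sets of Grhl2, Klf5, Trp63 and Ovol1 in the 3 replicates, with the dashed line at background. For Grhl2, Klf5 and Trp63, 1 probe set lay right of the line in every replicate and the others lay left of it.

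The members did not share a pattern over the 3 samples. For each gene the deviation from its 3-array mean was taken on the log2 scale, after the array's median deviation over the 9196 genes above background was taken off. None of the 9 genes was highest in replicate 3, whereas 5 were highest in replicate 8 (Foxa1, Grhl1, Grhl2, Pparg and Ovol1) and 4 in replicate 9 (Grhl3, Klf5, Trp63 and Elf3). Among all genes above background, replicates 3, 8 and 9 held the highest signal for 32.05%, 35.75% and 32.2%. Foxa1 deviated by -0.49, 0.47 and 0.02 in replicates 3, 8 and 9. Klf5 deviated by -0.33, -0.28 and 0.61, and Grhl3 by -0.06, -0.38 and 0.44. Trp63 deviated by -0.29, 0.01 and 0.28. The largest deviation of Grhl1 or Grhl2 was -0.17, that of Grhl2 in replicate 9.

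As the Euclidean distance between the 3 deviations, Grhl1 and Grhl2 were the closest pair of the 6 genes above background, at 0.10, and Foxa1 and Grhl3 the farthest, at 1.03. Klf5 and Grhl3 were 0.33 apart, and Klf5 and Foxa1 0.96. The median SD of the 6 genes was 0.33 and their median range 0.65, against 0.28 and 0.53 over all genes above background. None of the 6 had a range of at least 1, which 13.8% of all genes above background had. The genes whose deviations lay nearest to those of Foxa1 over the 3 arrays were Smim13 (signals of 5239, 10340.5 and 7134 in replicates 3, 8 and 9, distance 0.02), Dhrs7b (496, 1003 and 703, distance 0.03) and Rfx5 (4693, 9337 and 6367, distance 0.03). With 3 arrays such likeness is common, and 278 of 9195 genes lay within 0.25 of Foxa1.

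**Figure D3:**
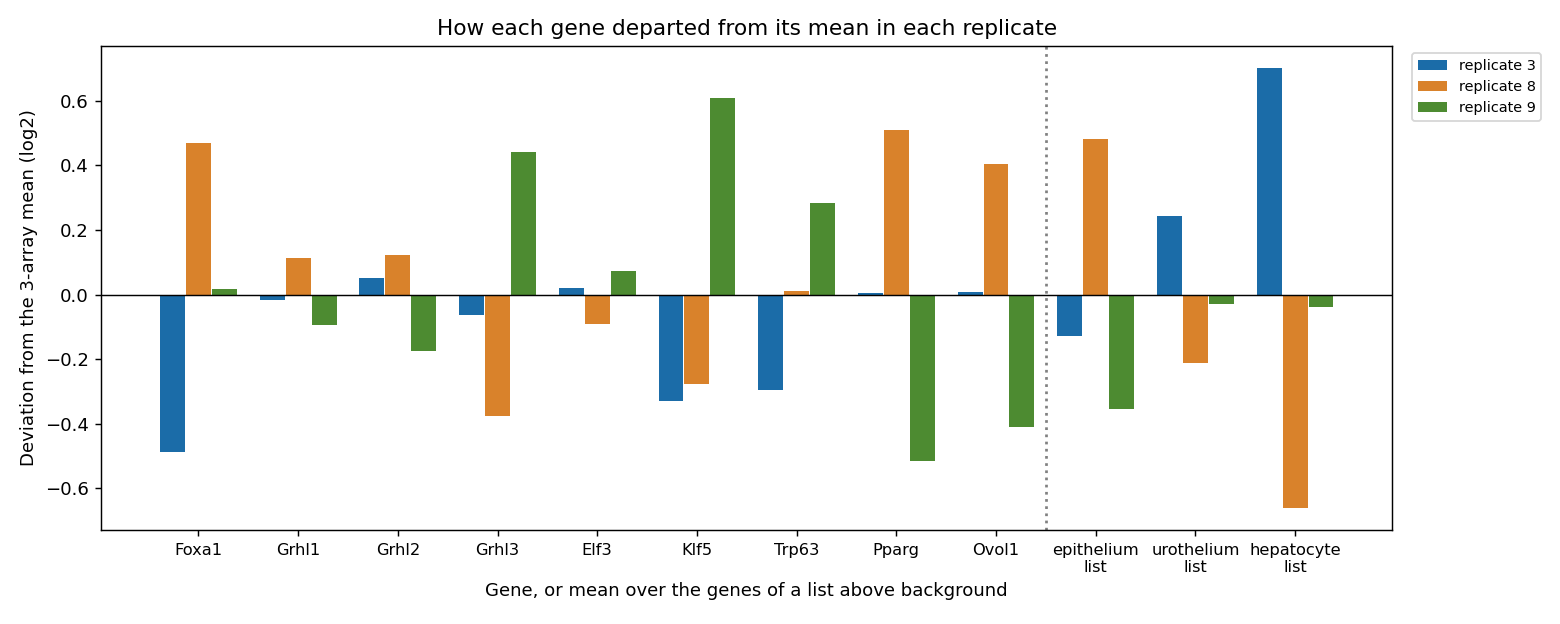
Deviation from the 3-array mean (log2) in replicates 3, 8 and 9 for each of the 9 genes and, right of the dotted line, the mean over the genes above background of the epithelium, urothelium and hepatocyte lists. Foxa1, Grhl1, Grhl2, Pparg and Ovol1 were highest in replicate 8, as the epithelium list was. Klf5, Grhl3, Trp63 and Elf3 were highest in replicate 9, where the epithelium list was lowest. Pparg and Ovol1 were above background on 1 array and Elf3 on 2.

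General epithelial genes were measured beside the 9 factors. Of 15, 11 were above background, against 50.5% of all named genes. Of these 11, 8 were highest in replicate 8, 3 in replicate 3 and none in replicate 9. Their mean deviations were -0.13, 0.48 and -0.35 in replicates 3, 8 and 9, and the summed signals of the list were 54749, 80077 and 47794. Epcam, a surface adhesion gene named here with Cdh1 as a grainyhead target, had signals of 2586, 8308 and 2414, and Cdh1, the E-cadherin gene, had 2029, 4767 and 1759. The keratin gene Krt8 varied less, with 20340.4, 23741 and 17646. Krt19, also a keratin gene, had 6275.5, 5208 and 3474 and was highest in replicate 3. In whole tissue, fewer epithelial cells and less RNA per cell cannot be told apart. Relative to the mean deviation of the epithelial genes, Klf5, Grhl3 and Trp63 were lower in replicate 8, by -0.76, -0.86 and -0.47, and higher in replicate 9, by 0.96, 0.79 and 0.64. Grhl1 (-0.37 and 0.26 in replicates 8 and 9), Grhl2 (-0.36 and 0.18) and Elf3 (-0.57 and 0.43) departed in the same directions by less than Grhl3 and Klf5. Foxa1 lay close to the epithelial genes in replicate 8 (-0.01), was lower than them in replicate 3 (-0.36) and higher in replicate 9 (0.37). All 6 members above background were thus lower than the epithelial genes in replicate 8, Foxa1 barely, and higher in replicate 9. The epithelial mean itself lay at 0.48 in replicate 8 and -0.35 in replicate 9. A gene that did not vary would therefore give the same signs, and the share of all genes that did was not counted. Pparg and Ovol1 stayed within 0.16 of the epithelial genes in each replicate, although neither was above background on all arrays.

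Of 11 urothelial genes 4 were above background on every array, against 50.5% of all named genes: the basal keratin genes Krt5 and Krt14, the uroplakin gene Upk1b and the transcription factor gene Gata3. The count was 6 of 11 without replicate 9, with the 90th percentile, with at least 2 arrays, and without exocrine pancreas genes or without Cela1 and Tff1 in the background list, and 2 of 11 with the 99th percentile. Krt5, a known p63 target, had signals of 3996, 3171 and 3334 (mean 3500.1 ± 437) and Krt14 had 1763, 666 and 1777 (mean 1402 ± 637). Both keratin genes were lowest in replicate 8, where the general epithelial genes were highest. The mean deviations of the 4 urothelial genes above background were 0.24, -0.21 and -0.03 in replicates 3, 8 and 9. The order of this mean differed from that of the general epithelial genes, but the 4 genes differed among themselves. In replicate 8 Krt14 deviated by -0.96 and Krt5 by -0.16, whereas Upk1b deviated by 0.13 and Gata3 by 0.15. Gata3 had signals of 1799, 2537 and 2494 and was lowest in replicate 3. Upk1b had signals of 2544, 1816 and 938. The other uroplakin genes of the list were not above background: Upk1a averaged 269 ± 131, Upk2 99.2 ± 49.0 and Upk3a 251 ± 229. Upk3a had signals of 128, 515 and 110 and exceeded background in replicate 8 alone, as Pparg and Ovol1 did. Background was lowest in that replicate (354, against 438 and 679 in replicates 3 and 9). Genes of other lists passed there alone too, such as Cnn1 of smooth muscle (207, 486 and 156) and Scnn1g of collecting duct (179, 572 and 238). The share of all genes that did was not counted. Krt20, a keratin gene of superficial cells that was singled out with its values in view, had 742, 478 and 541 and was above background on 2 arrays.

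Genes on which these factors are known to act were counted beside the 50.5% of all named genes above background. Of 10 grainyhead targets, 4 were above background: Cdh1, Epcam, Spint1 (833, 1006 and 681) and Esrp1, a regulator of epithelial splicing (3559, 4901 and 2854). All 4 were highest in replicate 8. All 4 also belong to the general epithelial list and so are part of its own pattern. Of the other genes of that list above background, Krt8, Krt18, Cldn7 and Spint2 were highest in replicate 8. Krt7, Krt19 and Esrp2 were highest in replicate 3. Whether the order is particular to grainyhead targets was not tested. Of the 6 that were not, the claudin genes Cldn3 (305 ± 107) and Cldn4 (262 ± 106) and Rab25 (203 ± 148) were below background on every array, as was Ovol2, a relative of Ovol1 (172 ± 41.3). Of 10 p63 targets, 7 were above background, with Dst, a hemidesmosomal linker gene, at 6789 ± 1626, Fgfr2 at 5942 ± 2443, and Perp, a desmosomal gene, at 3680.4 ± 373. The p63 target count was 5 with the 99th percentile (41.2% of all named genes) and 3 with the mean of all probe sets (38.2%). Itgb4 (63.4 ± 41.0) and the Notch ligand gene Jag2 (401 ± 57.4) were below background on every array, and Satb1 exceeded it on 2.

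Partners of PPARG were above background for 7 of 9 measured genes. The share over all named genes, for this list and for those that follow, was 50.5%. Rxrb, which encodes a retinoid X receptor, had signals of 6398, 4394 and 6280 and was lowest in replicate 8, and the coactivator genes Med1 and Ncoa2 averaged 5829 ± 949 and 4463 ± 1456. Rxra, which encodes a heterodimer partner of PPARG and was singled out with its values in view, had signals of 2537, 3196 and 1457, highest in replicate 8 and lowest in replicate 9. Pparg had that order too, but was above background on 1 array, and Rxrb did not share it. Of 8 PPARG targets 5 were above background, among them the lipid droplet gene Plin2 (15134 ± 763), the lipase gene Lpl (14543 ± 6784), Fabp4 (6528 ± 585) and Cd36 (2032 ± 157). With the mean of all probe sets, 4 partners and 3 targets were above background, against 38.2% of all named genes. Fabp4, Cd36 and Lpl are also genes of endothelium, macrophages and fat. Of 4 adipocyte markers Fabp4 alone was above background, with Adipoq at 81.5 ± 41.3, Cidec at 42.7 ± 38.1 and Retn at 39.5 ± 6.55. The macrophage and endothelial lists each had 5 of 6 genes above background. The macrophage gene Cx3cr1 exceeded it on 2 arrays, and the endothelial gene Pecam1 (236 ± 80.0) was below it on every array. Summed signals in replicates 3, 8 and 9 were 21452, 12258 and 27834 for macrophage genes and 13380, 11107 and 9717 for endothelial genes. The part of macrophage and endothelial RNA in the Pparg and target signals was not tested.

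Relatives of the 9 factors were above background for 18 of 25 measured genes. Ubp1 of the grainyhead superfamily averaged 23056 ± 2725, and the Krüppel-like genes Klf3, Klf4 and Klf6 averaged 11227 ± 1586, 10318 ± 1784 and 8464 ± 2122. The p53 family gene Trp73 (143 ± 46.9), the ETS gene Elf4 (182 ± 43.6) and Ovol2 were below background on every array. The next 4 relatives were singled out with their values in view. Ehf, an epithelial ETS gene close to Elf3, had signals of 749, 2483 and 565, highest in replicate 8, while Elf3 was flat. Tfcp2l1, a grainyhead relative of the collecting duct, had 888, 2573 and 975. Foxa2 had 435, 382 and 596 and was above background on 1 array, and Foxa3 had 3383, 2778 and 1799.

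Markers of other tissues that use these factors were measured beside them, again with 50.5% of all named genes above background. All 9 hepatocyte genes were above background, and all 9 were highest in replicate 3, with mean deviations of 0.70, -0.66 and -0.04 and summed signals of 224290, 119618 and 172038. Albumin (Alb) averaged 43401 ± 9173. Foxa1, which liver also expresses, was lowest in replicate 3 and highest in replicate 8, while the hepatocyte genes were highest in replicate 3 and lowest in replicate 8. The part of liver RNA in the Foxa1 signal was not tested. Of 10 epidermal genes 5 were above background, including Krt10 (7664 ± 1158), Lor (3001 ± 2895), Krt15 (2656 ± 1185) and Sbsn (1928 ± 418), whereas Ivl (94.9 ± 19.6), Krtdap (225 ± 120), Dsg1a (77.0 ± 19.1), Flg (15.5 ± 18.6) and Krt2 (5.31 ± 2.75) were below it on every array. The mean deviations of the epidermal genes were 0.42, -0.27 and -0.15, and their summed signals 21058, 12993 and 15626. The part of skin RNA in the Trp63 and grainyhead signals was not tested.

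Of all named genes 50.5% were above background, and of 8 gut epithelial genes 1 was (Fabp2, 1193 ± 251). The intestinal genes Vil1 (146 ± 21.5) and Cdx1 (6.95 ± 2.70) were below it on every array. Cdx2, of the same list, had signals of 529.5, 22.8 and 119.9 and exceeded background in replicate 3 alone. The collecting duct list had 1 gene of 10 above background, Tfcp2l1, and 4 of 10 without replicate 9. Its summed signals were 4415, 8929 and 4207 in replicates 3, 8 and 9, highest in replicate 8 as for the general epithelial genes. The part of collecting duct RNA in the member signals was not tested. Aqp2, the water channel gene of that duct, averaged 62.4 ± 54.2 and was among the 4 genes of the list below background on every array. The next 3 duct genes were singled out with their values in view. Calb1 (1375, 3126 and 542) and Wnt11 (539, 513 and 582) exceeded background on 2 arrays, and Ret (388, 628 and 581) on 1. The smooth muscle list, of the muscle coat that surrounds the urothelium, had 4 of 8 genes above background, with Acta2 at 31713 ± 3969 and Actg2 at 2877 ± 645. Myh11 (1244 ± 674), Tagln (1398 ± 694) and Myocd (662 ± 408) exceeded background on 2 arrays, and Cnn1 (283 ± 178) on 1.

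**Figure D4:**
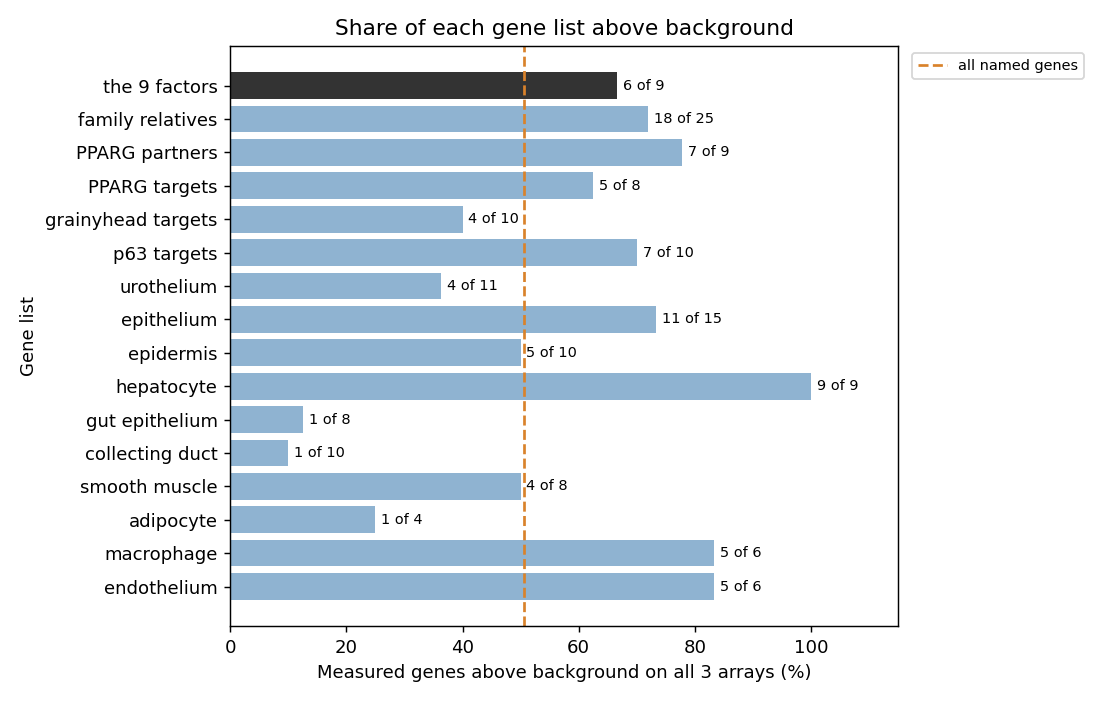
Percentage of the measured genes of each list that were above background on all 3 arrays, with counts beside the bars and the share of all named genes (50.5%) as a dashed line. The 9 factors lay at 6 of 9, above the urothelium list at 4 of 11 and below the hepatocyte list at 9 of 9.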

How the data were processed

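The authors deposited intensities on a linear scale for 45101 probe sets on each array. The submitters' processing notes name GCOS, Affymetrix software, and give no version or settings. Values were all above 0 and the array medians differed (234, 198 and 273 in replicates 3, 8 and 9). How background was handled is not given in the sources used here, and no detection calls were used.

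Gene names came from the platform annotation: 34958 had 1 symbol, 932 several and 9211 are not named here. Entrez IDs of 34754 matched the GRCm38.p6 reference gene table and no symbol differed. Signals were analysed as log2(signal + 1) with Python 3.11.15, pandas 2.3.3 and numpy 2.4.6. Background was the 95th percentile, per array, of 47 measured genes of 54 listed from tissues outside the dissection, 2 of which (Cela1 and Tff1) were themselves above it. In simulated data for 18194 genes this call found 96% of 50 genes set 0.5 (log2) over background, all of those set 1 or more over it, and 4.74% of genes drawn at the level of the background list. The last share follows largely from the 95th percentile rule. The simulated arrays shared 1 background level, whereas the real ones lay at 438, 354 and 679. Every simulated gene also had the same log2 SD, 0.28, the median of genes above background. Real genes near or below background differed from it, with 0.06 for Elf3 and 0.69 for Cldn4. The rates therefore do not hold for a gene near background, such as Elf3, Grhl1 or Grhl3.

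The members, lists and tests were chosen with earlier results of these data known. No group comparison was possible with 1 group of 3 arrays, whose number limits the precision, so no p-value is given. Named were all members with every probe set, up to 4 of the highest genes above background and the dimmest genes of each list, the 3 genes nearest to the member with the largest range, and the Actb and Gapdh controls. Genes outside this rule are said to be singled out. The alternatives tried were pseudocounts of 16 and 64, quantile normalization, the 90th and 99th percentiles, other compositions of the background list, at least 2 arrays, the mean over all probe sets of a gene, only probe sets not of the _x_at or _s_at classes, leaving out each replicate, no centring, all 9 members and the median over members.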

Additional observations from a re-analysis of the deposited data

How the results depend on the processing

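The count of factor genes above background was 6 of 9 and moved most with the mean of all probe sets of a gene in place of the brightest, when 3 remained (Foxa1, Grhl1 and Grhl3, against 38.2% of all named genes), since the dim probe sets of Grhl2, Klf5 and Trp63 then enter. Foxa1 alone was called in all alternatives run. Elf3 joined, for 7 of 9, with the 90th percentile, with at least 2 arrays, without replicate 9, without exocrine pancreas genes in the background list and without Cela1 and Tff1, an alternative added once the values had been seen. With the 99th percentile 4 remained (Foxa1, Grhl2, Klf5 and Trp63), and with the _x_at and _s_at classes left out 5 did. Grhl1, whose only probe set stayed in, was lost because the background rose, to 726 from 679 in replicate 9, with 44 in place of 47 genes in the background list. Quantile normalization left the same 6. Without 1 replicate the count lay between 6 and 7. Pparg and Ovol1 were called in none of these. The share of all named genes ranged from 38.2% to 59.1%. The count for the collecting duct list, 1 of 10, reached 6 with the 90th percentile. Among the counts of the other gene lists under these alternatives, collecting duct included, 15 moved by more than 1.5 times and 150 did not. The mean deviations of the 6 genes, -0.19, 0.01 and 0.18 in replicates 3, 8 and 9, moved by less than their spread in all alternatives run, but that spread is wide. The mean of replicate 9 was 0.03 with all 9 members, 0.06 with the mean of all probe sets and 0.08 without replicate 3. That of replicate 3 was -0.12 with all 9 members and -0.09 without replicate 9, and that of replicate 8 lay between -0.08 (without replicate 3) and 0.10 (mean of all probe sets). No paired analysis was possible because there is 1 group.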
